A study of Mus musculus with 3 samples.

Results

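The interleukin 1 family ligands and receptors described here are 10 genes, Il1a, Il1b, Il1rn, Il18, Il18bp, Il1r1, Il1r2, Il1rap, Il1rl1 and Sigirr, of 55536 annotated mouse genes. They were taken by gene symbol from the deposited gene annotation, and each symbol matched 1 protein-coding gene. All 3 libraries of the study belong to 1 group. Macrophages grown from bone marrow of C57BL/6J mice were exposed to 100 ng/ml Lipid A for 12 h, kept without it for 12 h and exposed to 100 ng/ml Lipid A again for 90 min. Lipid A is the part of bacterial lipopolysaccharide that the receptor TLR4 recognises. Total RNA of the cytosolic fraction was depleted of ribosomal RNA and sequenced, with 40730514, 70484996 and 49726063 expected counts in replicates 1, 2 and 3. The labels record neither age nor sex, name 1 donor record for all 3 libraries, and do not say whether the biological replicates came from separate animals or cultures, so the spread between them may be technical. No untreated, once-treated or nuclear library was analysed here, so every value is a level in twice-exposed cells and not a response.

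IL-1α and IL-1β are ligands of the same receptor, IL-1R1, which signals only after the co-receptor IL-1RAcP (Il1rap) joins it. IL-1β is made as an inactive precursor that caspase-1 cleaves, whereas the IL-1α precursor is already active. Signalling is held back by the receptor antagonist (Il1rn), which occupies IL-1R1, by the decoy receptor IL-1R2, and by the orphan receptor SIGIRR. IL-18 is a related, caspase-1-dependent ligand with its own soluble inhibitor, the IL-18 binding protein (Il18bp), and ST2 (Il1rl1) is the receptor of IL-33. In macrophages, the precursor of IL-1β is a standard product of TLR4 stimulation.

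Transcripts of ligands and soluble inhibitors were abundant, whereas each receptor gene stood near or below 1 TPM (a level corrected for transcript length and library size). Il1a and Il1b together made up 75.5 ± 6.07% of the summed TPM of the 10 genes (SD, n = 3). The inhibitors Il1rn and Il18bp made up 21.2 ± 5.01%. The 5 receptor genes made up 0.287 ± 0.0781%, with a summed level of 2.09, 2.24 and 1.95 TPM in replicates 1, 2 and 3. With detection set at 1 TPM or more in every library, 6 of the 10 genes were detected, against 16.7% of all annotated genes and 40.1% of protein-coding genes. The median of the 10 mean levels was 11.5 TPM, beside 0.13 TPM over 22015 nuclear protein-coding genes. In bulk RNA, fewer cells expressing a gene and less of its RNA per cell cannot be told apart.

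**Figure D1:**
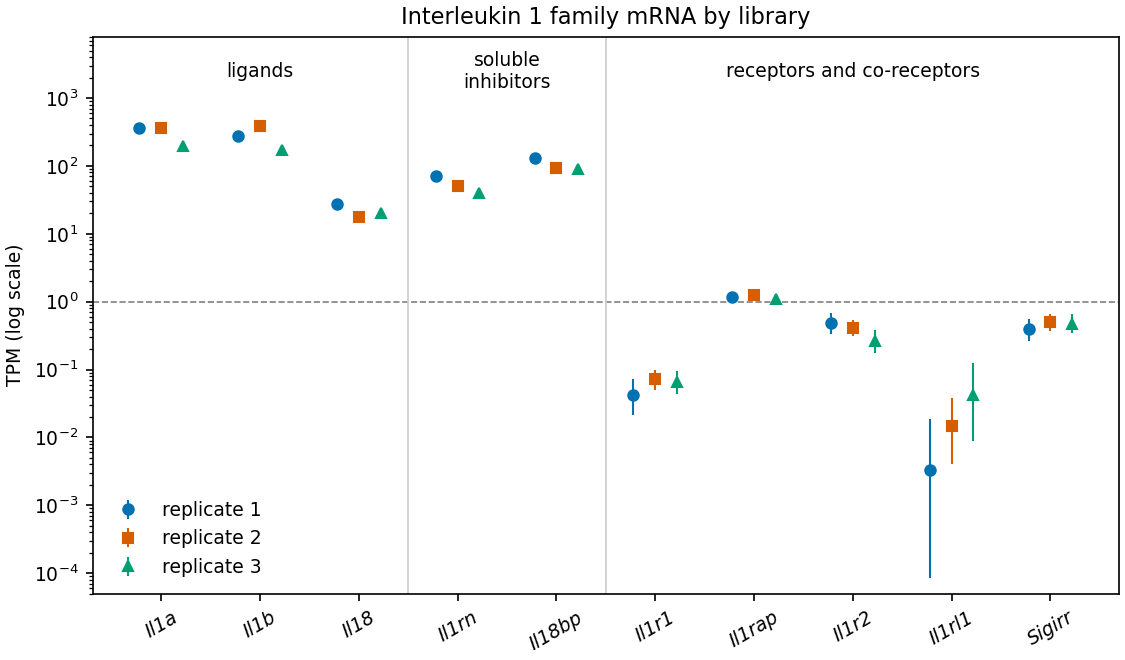
TPM of each member (log axis) in each of the 3 libraries, calculated from expected counts and effective lengths, by role. Points are libraries, bars are exact 95% Poisson intervals of the count where wider than the symbol, and the dashed line marks 1 TPM. The 3 ligands and both inhibitors lie between 17.4 and 394 TPM and the receptors at 1.24 TPM or lower.

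Il1a (ENSMUSG00000027399.1, mm10 chromosome 2, 129299610 to 129309972, minus strand) had 361, 360 and 196 TPM in replicates 1, 2 and 3. Its level was alike in replicates 1 and 2 and lower in replicate 3. Il1b (ENSMUSG00000027398.13, chromosome 2, 129364570 to 129371139, minus strand) had 280, 394 and 169 TPM. It was highest in replicate 2 and lowest in replicate 3. The genes lie on the same strand, 54.6 kb apart. They ranked at positions 103 (Il1a) and 119 (Il1b) among 22015 nuclear protein-coding genes by mean TPM. The log2 ratio of Il1a to Il1b was 0.37, -0.13 and 0.21, with a mean of 0.15 ± 0.26 (SD, n = 3), so neither ligand was higher in all 3 libraries and their difference was smaller than its spread. Exact Poisson intervals were narrow, for example 193.6 to 198.0 TPM for Il1a in replicate 3, and cover counting error only, since reads without molecular identifiers are not independent molecules.

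Nearly all Il1b reads were assigned to 1 coding transcript. Il1b-201 (269 codons) took 99.7 ± 0.0755% of the gene's TPM in the first transcript table and 99.4 ± 0.161% in the second. Il1a-201 (270 codons) is the only transcript annotated for Il1a, so its share of 100% in each library follows from the annotation. The noncoding Il1bos, which overlaps Il1b by 1243 bases on the opposite strand, stood at 0.07, 0.16 and 0.06 TPM. Gm14023, which overlaps Il1a by 8217 bases on the opposite strand, stood at 0.16, 0.13 and 0.3 TPM. The sources used here name no strand setting for the counting, so reads from overlapping genes could be assigned to either gene.

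The sequences upstream of both abundant ligands are shown because these 2 neighbouring genes had the highest levels of the family and both carry a TATA box close to the start. They are RefSeq sequences of build GRCm38.p6, the assembly of mm10, and cover the 250 bases before the annotated start, 5′ to 3′ on the gene's strand. Capitals mark the TATA box letters TATAAA in both, the AP-1 motif TGANTCA near the end of the Il1a sequence, and the C/EBP motif TTNNGNAAT in Il1b.
Il1a, chr2:129309973-129310222, minus strand: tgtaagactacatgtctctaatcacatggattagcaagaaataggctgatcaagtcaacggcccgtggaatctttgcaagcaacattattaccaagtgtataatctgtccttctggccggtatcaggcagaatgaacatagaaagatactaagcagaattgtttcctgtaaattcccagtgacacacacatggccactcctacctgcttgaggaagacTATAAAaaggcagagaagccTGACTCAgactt
Il1b, chr2:129371140-129371389, minus strand: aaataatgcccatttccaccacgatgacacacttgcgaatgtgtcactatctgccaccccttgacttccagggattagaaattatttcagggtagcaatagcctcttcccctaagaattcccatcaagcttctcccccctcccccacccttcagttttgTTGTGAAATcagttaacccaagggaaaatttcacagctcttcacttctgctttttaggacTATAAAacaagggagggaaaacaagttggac

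Counted from the annotated start, TATAAA lay at -32 to -27 in Il1a and at -31 to -26 in Il1b. The AP-1 match of Il1a lay at -12 to -6 and the C/EBP match of Il1b at -91 to -83. RefSeq had promoter entries for 9 of the 10 genes, with 13 windows, and none for Sigirr. On either strand, TATAAA occurred in 3 of the 13 windows (those of Il1a, Il1b and Il18) and in 12.4% of all 32851 promoter windows. The Il18 match was on the opposite strand, read as TTTATA, and lay farther from the start, at -175 to -170. TGANTCA occurred in 2 of 13 (Il1a and the upstream start of Il1rn) and in 6.75% of all windows, and TTNNGNAAT in 5 of 13 and in 10.2%. The kappaB motif, searched as GGG, any 2 bases and TTTCC, occurred in 1 window, of Il1rn, and in 1.41% of all windows. The interferon response motif, searched as GAAA, any 2 bases and GAAA, was in none of the 13 and in 2.98% of all windows. No searched motif overlapped another in the Il1a and Il1b windows. A match is a match of letters and was not tested as a binding site.

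Il18 (ENSMUSG00000039217.13, chromosome 9, 50554827 to 50581840, plus strand) had 27.6, 17.4 and 20.3 TPM, from 959, 1154 and 1000 counts. It was the lowest of the 3 ligands in every library. The log2 ratio of Il18 to Il1b was -3.34, -4.50 and -3.06, with a mean of -3.63 ± 0.76 (SD, n = 3), which is 12.4-fold lower than Il1b. Replicate 2, where Il1b was highest and Il18 lowest, gave the widest gap.

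The IL-18 binding protein gene Il18bp (ENSMUSG00000070427.4, chromosome 7, 102014885 to 102018690, minus strand) had 130, 92.0 and 89.6 TPM. It exceeded its ligand Il18 in every library, by a log2 ratio of 2.23, 2.40 and 2.14. The mean of 2.26 ± 0.13 (SD, n = 3), a 4.78-fold higher level, had the smallest spread of the 8 pairs with a mean. Il18bp overlaps Numa1, read at 14.5 to 15.3 TPM, by 80 bases on the opposite strand.

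For IL-1 itself the balance ran the other way, with the antagonist transcript below both ligands. Il1rn (ENSMUSG00000026981.15, chromosome 2, 24336853 to 24351494, plus strand) had 70.5, 49.96 and 39.6 TPM. Relative to Il1a the log2 ratio was -2.36, -2.85 and -2.30, with a mean of -2.50 ± 0.30 (5.67-fold lower). Relative to Il1b it was -1.99, -2.98 and -2.09. The lowest ratio fell in replicate 2 for both ligands. With 3 libraries an exact two-sided sign-flip test cannot go below p = 0.25, so no p is given for any ratio.

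**Figure D2:**
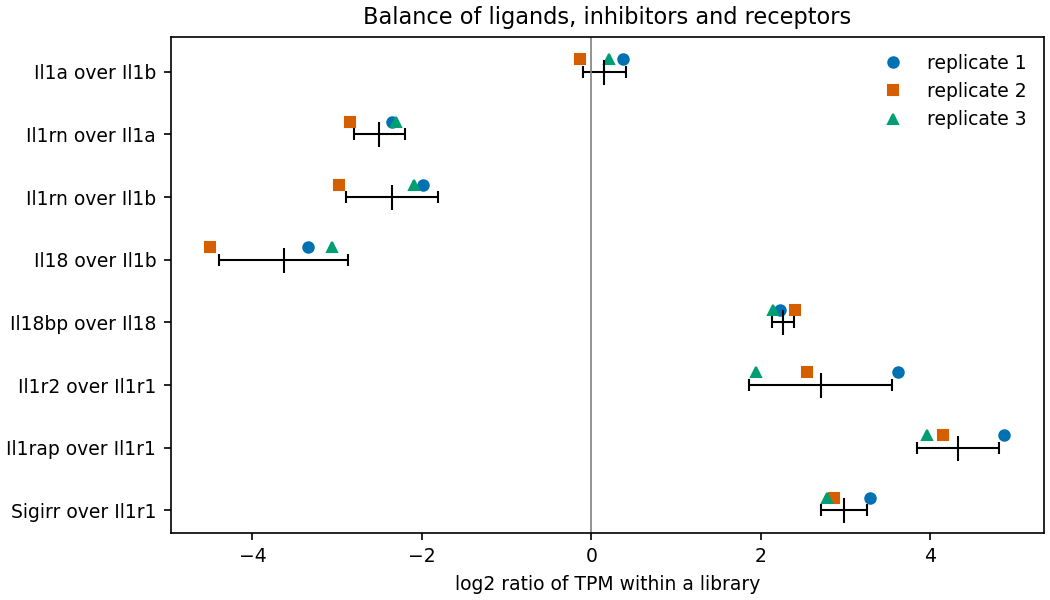
Within-library log2 ratio of TPM for 8 pairs of members, first-named gene over second-named. Symbols are libraries, and the vertical tick and bar under them are the mean and SD of 3 libraries. Il1a over Il1b spans 0, Il1rn over either ligand is at -1.99 or lower, and Il18bp over Il18 is at 2.14 or higher, in every library.

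Il1rn is annotated with transcripts that begin at separate starts and differ in the first codons. Il1rn-201 (178 codons) encodes the secreted antagonist with its leader peptide, and Il1rn-204 (159 codons), whose first base lies 8.457 kb upstream, encodes an intracellular form without it. Another form, Il1rn-202, has 162 codons. All 3 share their last 468 coding bases. Their coding starts are shown because they are what separates the forms, with the first 24 shared bases in capitals (GENCODE M21 transcripts, mm10 chromosome 2, plus strand, 5′ to 3′).
Il1rn-201: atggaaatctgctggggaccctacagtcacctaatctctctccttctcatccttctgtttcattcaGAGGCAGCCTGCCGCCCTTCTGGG
Il1rn-204: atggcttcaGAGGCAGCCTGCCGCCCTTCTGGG
Il1rn-202: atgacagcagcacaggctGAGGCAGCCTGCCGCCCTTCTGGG

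The secreted form Il1rn-201 took 77.1, 78.0 and 74.8% of the gene's TPM in replicates 1, 2 and 3 of the first transcript table, and 77.5 ± 1.67% in the second (SD, n = 3). Its 66 own coding bases before the shared part belong to the leader. The intracellular form Il1rn-204, with 9 own bases, took 14.8, 16.5 and 18.6% in the first table and 11.1 ± 1.47% in the second. Il1rn-202 took 5.07 ± 1.60% in the first table and 9.63 ± 2.48% in the second. The secreted form was thus the main one in every library and both tables, while the order of the other 2 was fixed only in the first table, since their shares in the second overlapped. Transcripts from the upstream start together held 17.1 ± 2.27% in the first table and 11.5 ± 1.72% in the second.

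Il18 and Il18bp each had more than 1 abundant transcript, and the tables did not share them out alike. ENSMUST00000180021.1 and ENSMUST00000214117.1 of Il18 encode the same number of codons (192) from different starts. ENSMUST00000180021.1 took 47.1 ± 5.40% in the first table and 20.9 ± 10.003% in the second, whereas ENSMUST00000214117.1 took 32.7 ± 4.31% and 53.3 ± 9.38%. ENSMUST00000059081.12 is as long as ENSMUST00000180021.1 and differs from it in 7 bases, and it received 0% in the first table. The shorter-coding ENSMUST00000213916.1 (78 codons) took 20.3 ± 1.10% and 25.6 ± 0.578%. For Il18bp, Il18bp-203 took 53.5 ± 1.01% in the first table and 29.1 ± 1.74% in the second, and Il18bp-201 took 44.8 ± 1.14% and 69.0 ± 1.26%. Both encode 193 codons, so the order of Il18bp transcripts depended on the table while the coding length did not.

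**Figure D3:**
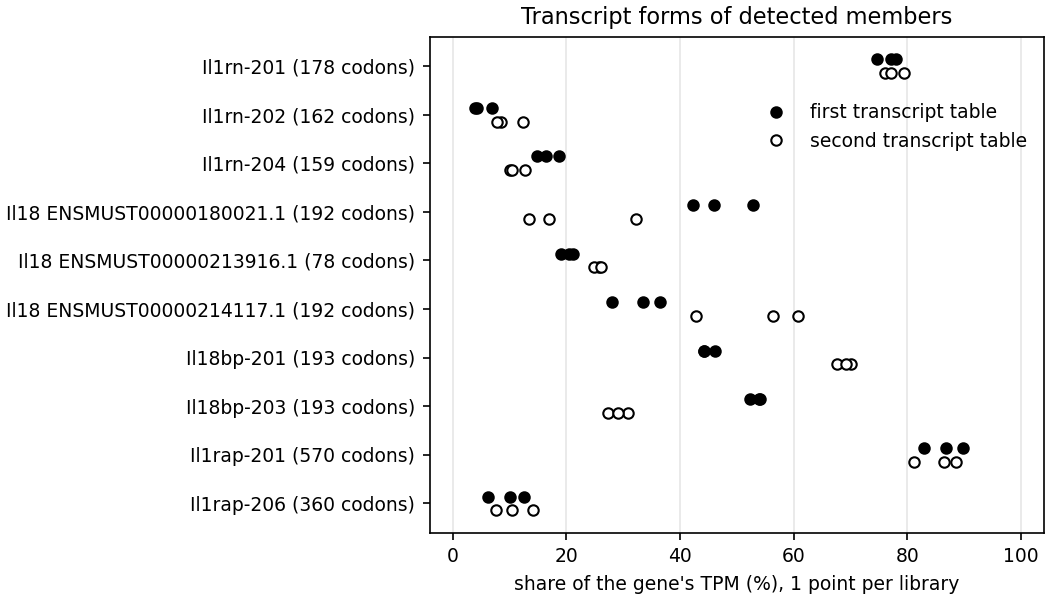
Share of each gene's TPM taken by its transcripts of 5% or more, for the 4 detected members with several such forms. Each point is 1 library, filled for the first transcript table and open for the second. The tables give like shares for Il1rn-201 and Il1rap-201 and opposite orders for Il18bp-201 and Il18bp-203.

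Among the receptors, only the co-receptor gene passed the threshold. Il1rap (ENSMUSG00000022514.14, chromosome 16, 26581704 to 26730117, plus strand) had 1.17, 1.24 and 1.09 TPM, from 303, 596 and 386 counts. These levels differed little, but the lower bound of the Poisson interval in replicate 3 was 0.982 TPM, so the call lies close to the threshold. The second transcript table gave 0.585, 0.709 and 0.570 TPM for Il1rap, below the threshold in every library. TPM of that table run lower for the abundant members too, with Il1a at 166 ± 55.3 TPM. Rescaled over nuclear protein-coding genes, Il1rap had 3.53, 4.20 and 3.90 TPM in the gene table (mean 3.87 ± 0.334, SD, n = 3). On that scale the second transcript table gave 3.31, 3.96 and 3.78 TPM (mean 3.68 ± 0.334), slightly lower in each library.

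Il1rap also encodes a soluble co-receptor that lacks the membrane-spanning part. Its transcript Il1rap-206 (360 codons) parts from the membrane form Il1rap-201 (570 codons) after 1051 shared coding bases. The branch is shown because the soluble form rests on it: the last 24 shared bases are in lower case and the bases after the branch are in capitals (GENCODE M21, mm10 chromosome 16, plus strand, 5′ to 3′, ending just before the stop codon for Il1rap-206 and cut short for Il1rap-201).
Il1rap-206: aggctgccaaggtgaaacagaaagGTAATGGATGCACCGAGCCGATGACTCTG
Il1rap-201: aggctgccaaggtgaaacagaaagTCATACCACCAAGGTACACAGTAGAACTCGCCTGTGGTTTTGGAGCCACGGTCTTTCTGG

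The membrane form Il1rap-201 took 89.7, 86.8 and 82.9% of the gene's TPM in the first table, and the soluble form Il1rap-206 took 6.25, 10.1 and 12.5%. In the second table the soluble form took 7.599, 10.5 and 14.1%, the same order of libraries. Its first-table counts were 9.44, 30.7 and 25.0, so these shares rest on 30.7 counts or fewer.

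The signalling receptor gene Il1r1 (ENSMUSG00000026072.12, chromosome 1, 40225080 to 40317257, plus strand) had 0.04, 0.07 and 0.07 TPM, from 12, 39 and 27 counts. The Poisson intervals ran from 0.0216 to 0.0730 TPM in replicate 1 and from 0.0508 to 0.0976 TPM in replicate 2, so the libraries were not told apart at this depth. The co-receptor Il1rap exceeded Il1r1 in every library by a log2 ratio of 4.33 ± 0.48 (20.1-fold; SD, n = 3).

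The decoy receptor gene Il1r2 (ENSMUSG00000026073.13, chromosome 1, 40074079 to 40125231, plus strand) had 0.49, 0.41 and 0.27 TPM, from 34, 52 and 28 counts. It exceeded Il1r1 in every library, with log2 ratios of 3.61, 2.55 and 1.95 (mean 2.70 ± 0.84, n = 3). The inhibitory receptor gene Sigirr (ENSMUSG00000025494.8, chromosome 7, 141091175 to 141100572, minus strand) had 0.39, 0.51 and 0.48 TPM, from 29, 50 and 40 counts. Its log2 ratio to Il1r1 was 2.98 ± 0.27 (n = 3). Sigirr was the lower of the pair with Il1r2 in replicate 1 and the higher in replicates 2 and 3, so their order was not settled.

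The IL-33 receptor gene Il1rl1 (ENSMUSG00000026069.15, chromosome 1, 40429570 to 40465415, plus strand) had 1, 4 and 3 counts, which gave 0.00, 0.01 and 0.04 TPM as deposited. At these counts no ratio to Il1r1 is given. The Poisson interval reached up to 0.0185, 0.0380 and 0.125 TPM, and in replicate 3 it covered the level of Il1r1. Shares of the soluble and membrane forms of Il1rl1, Il1r2, Il1r1 and Sigirr rest on at most 52 counts per gene and library. The share of the Il1r2 transcript ENSMUST00000027243.12 (410 codons), for example, ranged between 62.4 and 99.8% in the first table.

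By mean level the order was Il1a, Il1b, Il18bp, Il1rn, Il18, Il1rap, Sigirr, Il1r2, Il1r1 and Il1rl1. Neighbours were taken as separated when the log2 ratio, here of TPM recomputed from counts and effective lengths, had 1 sign in all 3 libraries and a mean above its SD. Il1a with Il1b and Sigirr with Il1r2 were not separated, with mean log2 ratios of 0.15 ± 0.26 and 0.27 ± 0.57. The place of Il1r1 before Il1rl1 rests on the 1, 4 and 3 counts of Il1rl1, and in replicate 3 these 2 genes were not told apart. The widest step lay between Il18 and Il1rap, at 4.20 ± 0.37 on the log2 scale.

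None of the other genes of the family reached 1 TPM in any library. Of 6 further ligand genes none was detected, and their summed level was 0.07 to 0.18 TPM. The highest was Il1f9, which encodes IL-36γ, with 0.06, 0.17 and 0.09 TPM from 5, 29 and 11 counts. Il33 had 1 count in replicate 1 and 0 in the other 2, and Il1f6 had 1 count in replicate 2 and 0 in the other 2. Il1f8, Il1f5 and Il1f10 had 0 counts throughout, and the limit that 3 counts set is 0.0492, 0.0387 and 0.162 TPM in the library where they are worth most. Of 5 further receptor genes none was detected either. Il1rl2, the receptor of the IL-36 ligands, was highest with 0.5, 0.61 and 0.36 TPM from 85, 242 and 105 counts, levels like those of Sigirr and Il1r2. Il18rap had 0.06, 0.04 and 0.05 TPM, and Il18r1, the ligand-binding chain for IL-18, had 0, 1 and 1 counts. Il1rapl1 and Il1rapl2 had 0 counts. Il1r2, Il1r1, Il1rl2, Il1rl1, Il18r1 and Il18rap form 1 cluster of 478 kb on chromosome 1 (40074079 to 40551705). Its 6 genes summed to 149, 356 and 184 counts, with 0.61 TPM the highest value of any of them.

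The genes that process and release the ligands were all detected, 10 of 10, with a median of the mean levels of 40.9 TPM. Over all nuclear protein-coding genes 40.1% were detected, at a median of 0.13 TPM. This list and the signalling list were chosen with earlier results of these data known. Ninj1, whose product breaks open the plasma membrane during lytic death, had 171, 179 and 154.5 TPM. The inflammasome sensor Nlrp3 had 113, 105 and 65.0 TPM. Replicate 3 was lowest for Nlrp3, Il1a and Il1b, but also for Ninj1, Capn1 and others of the list. It was not the lowest for Nek7, Casp8, Gsdmd and Pycard of the same list. The protease genes Capn1, at 15.4 ± 0.480 TPM, and Nek7, a kinase that binds NLRP3, at 19.5 ± 2.43 TPM, were the lowest of the list. All 12 of 12 signalling genes downstream of the receptors were detected as well, at a median level of 14.2 TPM. The adaptor Myd88 had 65.9, 55.1 and 53.1 TPM and the ubiquitin ligase Peli1 had 67.7, 36.1 and 30.2 TPM. Myd88 was the highest of the list by mean, but lay below Peli1 in replicate 1. Lowest were Tab1 (1.72 ± 0.202 TPM) and Tab3 (2.46 ± 0.151 TPM), which activate the kinase TAK1. Most of these signalling proteins also serve TLR4.

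**Figure D4:**
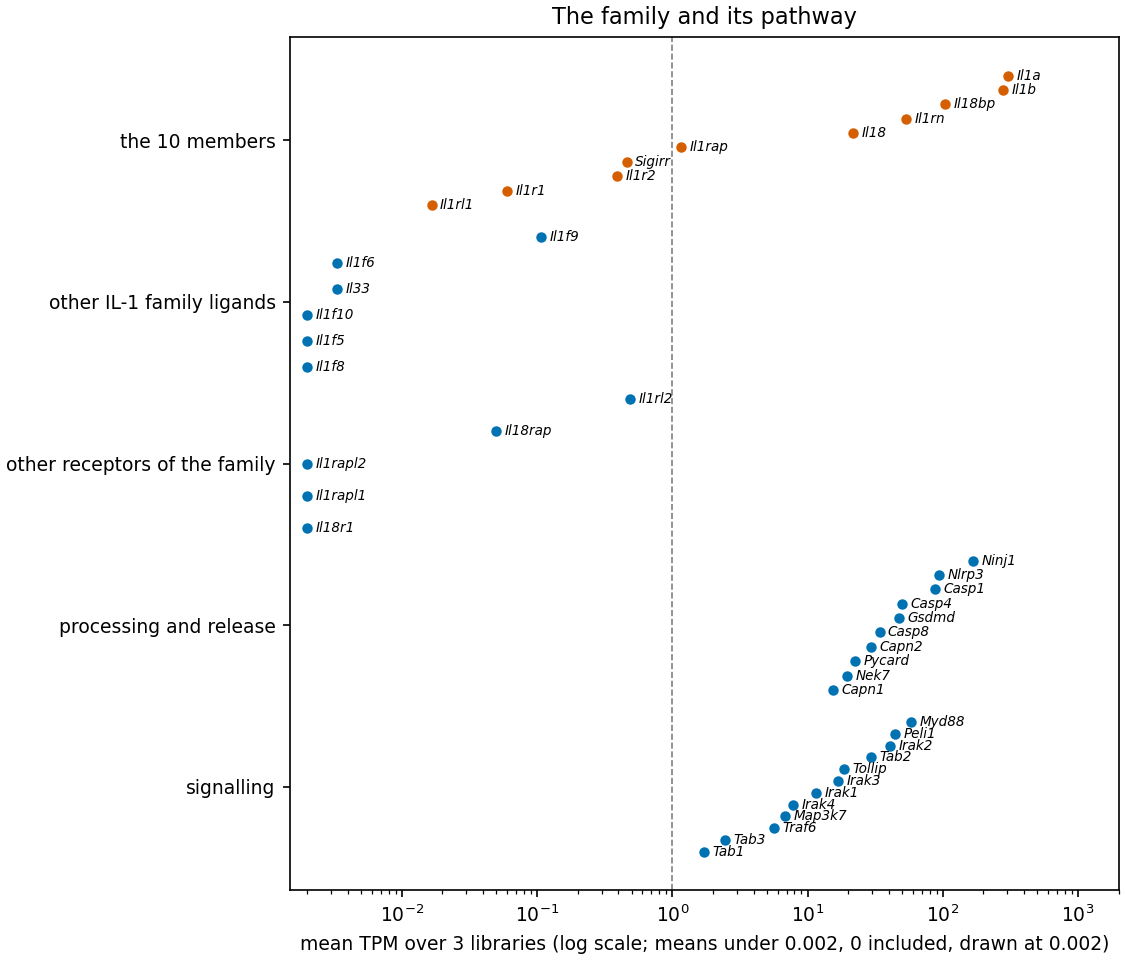
Mean TPM over 3 libraries (log axis) of the 10 members and of 4 lists of related genes, 1 point per gene. The dashed line marks 1 TPM, and means under 0.002 TPM are drawn at 0.002. Every processing and signalling gene lies to the right of the line, and every further ligand and receptor to its left.

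Variation between the libraries was tested with an edgeR negative binomial fit, as a chi-square test of each gene's deviance from 1 common level. Adjustment was over 12256 genes. The dispersion was taken from the trend over genes of like abundance in these same 3 libraries. The test thus asked which genes varied more than genes of like abundance, and a gene not called could still differ between libraries. The fit called 240 genes, 1.96% of those tested. Il1rl1 was not tested because its counts failed the filter, and 0 of the other 9 members were called. Without adjustment, 843 genes passed the same threshold of 0.05, among them 2 members, Il1b and Il1a. The edgeR adjusted p was 0.128 for Il1b and 0.672 for Il1a. Without replicate 1, Il1b was called (edgeR adjusted p = 0.00499), with its highest level in replicate 2 and its lowest in replicate 3. Over the other 7 settings the adjusted p of Il1b was between 0.0840 and 1.00.

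On a scale of nuclear protein-coding genes alone, the libraries placed the members differently. Il1a departed from its own mean log2 level by 0.16, 0.32 and -0.48 in replicates 1, 2 and 3, and Il1b by -0.06, 0.60 and -0.54. Il1rn instead was highest in replicate 1, with departures of 0.31, -0.03 and -0.28. Il18 departed by 0.23, -0.26 and 0.03, and Il18bp by 0.20, -0.12 and -0.08. Replicate 2, the highest for both IL-1 ligands, was thus the lowest for Il18 and, narrowly, for its inhibitor. In deposited TPM Il18bp was lower in replicate 3 (89.6 TPM) than in replicate 2 (92.0 TPM). Il1rap stayed within 0.13 of its mean. The share of all TPM held by protein-coding genes was 33.2, 29.6 and 28.0%, and on the protein-coding scale the mean level of Il1a became 1003 ± 270 TPM and that of Il1b 927 ± 371 TPM.

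**Figure D5:**
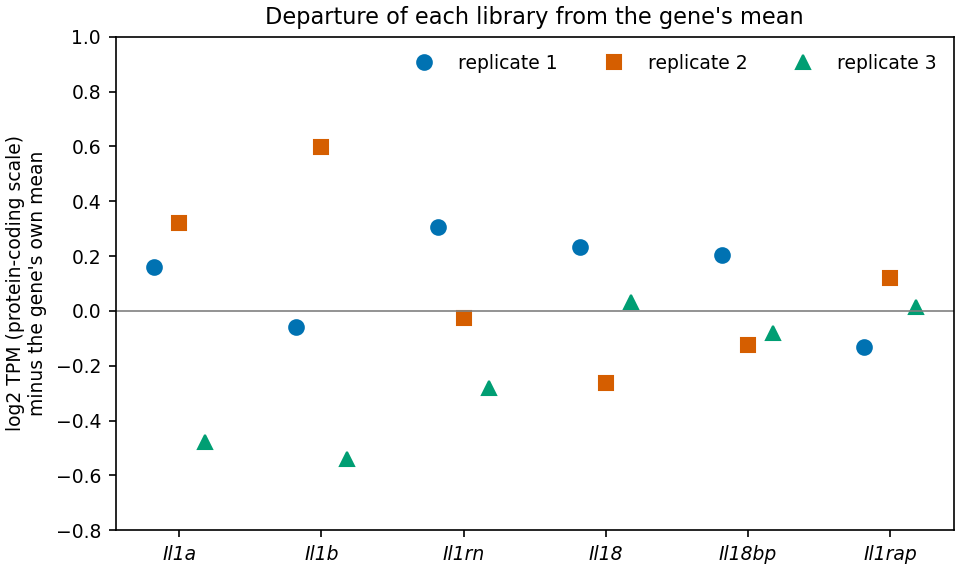
Departure of each library from the gene's own mean, in log2 TPM on the scale of nuclear protein-coding genes, for the 6 detected members. Symbols are the 3 libraries. Il1a and Il1b are highest in replicate 2 (0.32 and 0.60) and lowest in replicate 3. Il18 is lowest in replicate 2, and Il18bp is lowest there only narrowly.

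The genes whose levels over the 3 libraries were most like those of the 3 IL-1 transcripts were sought among 3957 other protein-coding genes with a mean of 10 TPM or more, by the Euclidean distance between centred log2 TPM. For Il1a they were Atf5, Arl5c and Emp1, at distances of 0.05, 0.07 and 0.08. For Il1b they were Ampd3 (0.09), the lipopolysaccharide co-receptor gene Cd14 (0.19) and Tfec (0.22). Cd14 had 210.1, 350 and 147 TPM, the same order of libraries as Il1b. For Il1rn they were Metrnl, Rnh1 and Fam53c, at 0.02, 0.04 and 0.04. Within a distance of 0.1 lay 10 genes for Il1a, 1 for Il1b and 32 for Il1rn. These distances rest on 3 libraries that differ in depth and in the share of protein-coding TPM, and they are given as a description.

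Markers of the labelled cell type were high, and 8 of 8 macrophage markers were detected, with Lyz2 highest at 3262 ± 426 TPM. Adgre1 (652 ± 113 TPM) and Cd68 (642 ± 93.1 TPM) followed and were not told apart, and by mean Mertk (36.6 ± 4.62 TPM) and Itgam (37.6 ± 9.0 TPM) were lowest. Of 10 neutrophil markers 3 were detected, S100a9 (6.58 ± 1.26 TPM), S100a8 (4.12 ± 1.39 TPM) and Mmp8 (2.15 ± 0.313 TPM). The neutrophil list summed to 14.9, 10.1 and 14.9 TPM, and the defining genes Ly6g and Retnlg had 0 counts. Il1r2, which neutrophils are known to express, stood at 0.49, 0.41 and 0.27 TPM in the same libraries, and the part of neutrophil RNA in it was not tested. The 7 markers of mast cells and basophils all missed the threshold and summed to 0.07 to 0.34 TPM. Prss34 (0.08 TPM) and Gata2 (0.05 TPM) were highest, and Mcpt4 and Tpsb2 had 0 counts. None of 5 T, NK and innate lymphoid markers was detected, with a sum of 0 to 0.1 TPM. Cd3e (0.03 TPM) and Ncr1 (0.01 TPM) were the highest of them, Gata3 had 1 count in 1 library, and Cd3g had 0 counts. Of 7 stromal and endothelial markers only Kdr was detected, with 8.64, 3.73 and 2.43 TPM, followed by Cdh5 (0.3 TPM), while Pdgfra and the collagen genes Col1a1 and Col3a1 were at 0.01 TPM or less on average. That list summed to 9.16, 4.13 and 2.65 TPM, nearly all of it Kdr. Il1a, Il1rn, Il18bp and Il1r2 had the same order of libraries as Kdr, and so did the protein-coding share of TPM (33.2, 29.6 and 28.0%). On the protein-coding scale Il1rn and Il1r2 kept that order, and Il1a and Il18bp did not. The order of Il1r2 rests on 34, 52 and 28 counts. Its Poisson intervals overlapped, at 0.336 to 0.679, 0.309 to 0.543 and 0.1775 to 0.386 TPM. The second transcript table did not keep it, with 0.262, 0.281 and 0.218 TPM for Il1r2, and replicate 2 stayed highest there on the protein-coding scale. The part of stromal or endothelial RNA in the levels of Il1a, Il1rn, Il18bp and Il1r2 was not tested.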

How the data were processed

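Cytosolic RNA, depleted of ribosomal RNA, was quantified in 3 libraries of 1 group. The deposited gene table holds expected counts with their posterior SD (at most 0.74 counts for a member), TPM and FPKM, made by the authors from transcriptome alignments on mm10 with GENCODE M21, per the notes deposited with the files. The first transcript table adds each transcript's percent of its gene's TPM, deposited by the authors. The second holds estimated counts and TPM made by the authors directly from the reads. The sources used here give no program, version or use of strand. TPM sum over all annotated features, so they move with the share of noncoding RNA, and they are deposited with 2 decimals.

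Levels and ratios are means ± SD of deposited TPM. Low counts carry exact 95% Poisson intervals. Variation between libraries was tested on rounded expected counts with edgeR 4.0.16 in R 4.3.3 (TMM factors, filterByExpr with a minimum count of 10, intercept-only fit, trended dispersion, deviance on 2 degrees of freedom, Benjamini-Hochberg adjustment at 0.05) and was tested on simulated data. The other tables were made with Python 3.11.15. The 10 genes, the lists and the pairs were chosen with earlier results of these data known. Named were all 10 genes, the 2 highest and 2 lowest of each list and those on the other side of the threshold from the rest, transcripts of 5% or more, and the 3 nearest genes by profile. Col1a1, Col3a1, Cd3g, Retnlg, Il18r1, Il1rapl1, Il1rapl2 and other genes at or near 0 were ties at the low end. Casp8, Gsdmd and Pycard were named for their order of libraries. Alternatives changed the threshold, scale, table, pseudocount, normalization, filter, dispersion and libraries used.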

Additional observations from a re-analysis of the deposited data

How the results depend on the processing

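The count of detected members was 6 at 0.5 TPM and by FPKM, 5 at 5 TPM (Il1rap was lost), 5 by the second transcript table, whose TPM run lower for the abundant members (Il1rap again) and 7 on the protein-coding scale (Sigirr was gained). It was 6 without each replicate in turn. No member was called variable under any other normalization, filter, dispersion or table; without a replicate the count ranged between 0 and 1, the 1 being Il1b without replicate 1. The edgeR fit called 240 genes in all, and 119, 102 and 82 without replicates 1, 2 and 3, where fewer libraries entered.

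No ratio changed sign under any alternative. Counts not corrected for length, which by construction add the difference in length, moved the log2 ratio of Il1a to Il1b to 0.79, Il1rn to Il1b to -1.71, Il18 to Il1b to -4.64, Il18bp to Il18 to 3.42, Il1r2 to Il1r1 to 0.66 and Sigirr to Il1r1 to 0.73. A pseudocount of 1 TPM, above the level of these receptors, moved Il1r2 to Il1r1 to 0.39, Il1rap to Il1r1 to 1.03 and Sigirr to Il1r1 to 0.46. The second transcript table moved Sigirr to Il1r1 to 3.48, and the cause was not tested. Il1rl1 to Il1r1 had no finite mean, since Il1rl1 was listed at 0.00 TPM in 1 library. TPM recomputed from counts, an alternative chosen after seeing the data, moved no ratio by more than its SD. No paired analysis was possible because the libraries form 1 group. Depth limits Il1r1, Il1r2, Il1rl1 and Sigirr, which had at most 52 counts in a library.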
